A study of Mus musculus with 2 samples.

Results

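The RNA-binding protein genes Lin28a and Lin28b, the ubiquitin ligase gene Trim71 and 5 genes known as targets of the let-7 microRNAs (Hmga1, Hmga2, Igf2bp1, Igf2bp2 and Igf2bp3) were followed through differentiation of mouse embryonic stem (ES) cells. These 8 genes, of 34126 distinct symbols, were taken by symbol (LIN28A, LIN28B, TRIM71, HMGA1, HMGA2, IGF2BP1, IGF2BP2 and IGF2BP3, as the tables spell them) from the deposited gene, promoter and transcript tables, where they held 9, 19 and 36 rows. Lin28a had 2 gene rows and each other gene had 1. The differentiated library came from E14 cells (strain 129P2/OlaHsd) grown for 4.5 days on gelatin in 10% serum with 0.1 µM all-trans retinoic acid, and the labels call it a mixed population. The undifferentiated library came from the same line on mitomycin C-treated embryonic fibroblasts in 15% serum with leukaemia inhibitory factor at 1000 u/ml, a cytokine that holds mouse ES cells in self-renewal. Both cultures were at passage 29, and residual feeder cells were estimated below 0.25% after adsorption. Each condition has 1 poly(A) RNA library, sequenced on 2 lanes, so there is no replicate culture and no test between the conditions. Values are RPKM, reads per kilobase of transcript model scaled to the reads of the lane, which allow levels to be compared between genes. A spread between lanes covers sequencing and read assignment alone.

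Low values implied 33000000 and 32000000 reads in the differentiated lanes and 37800000 and 36100000 in the undifferentiated lanes. These were the best fits within a preset range of depths. Depths outside that range were not tried, and the read numbers given below scale with the implied depth. The lanes lay within 2-fold of each other for 98.4% of 8824 differentiated and 98.5% of 7832 undifferentiated genes that reached 10 RPKM. The labelled cell states were checked on marker lists. All 10 ES cell markers passed 2-fold towards lower values after differentiation, with sums of 337 to 350 RPKM in its lanes against 3795 to 3800 in the undifferentiated lanes. Of 10 extraembryonic endoderm markers 9 were at least 2-fold higher, with sums of 546 to 573 RPKM in the differentiated lanes against 7.67 to 9.13 in the undifferentiated lanes. Of 10 fibroblast markers 9 reached 1 RPKM in either library, and 5 were at least 2-fold higher. Sums over the 10 were 2131 to 2135 RPKM in the differentiated lanes against 522 to 536 in the undifferentiated lanes. The smooth muscle actin gene Acta2 made 1902 and 492 of these, and Lum was near 0 in both libraries (0.0530 and 0.0921). The other genes at least 2-fold higher were Col1a1 (133 against 12.3 RPKM), Col1a2 (48.6 against 6.69), Col3a1 (36.4 against 3.61) and Dcn (2.82 against 0.673). Short of 2-fold, Thy1 (2.13 against 3.43 RPKM), Postn (1.63 against 2.69) and Fap (3.93 against 6.43) were lower in the differentiated library. Pdgfrb (2.64 against 1.58 RPKM) was higher. Of 6 neural markers 5 reached 1 RPKM in either library, of which 1 was higher and 1 lower. Of 6 mesoderm markers 3 reached it (Hand1, Hand2 and Twist1), and all 3 were higher. The primitive streak genes T and Mesp1, and Tbx6, had means under 1 RPKM in both libraries. Over all genes that reached 1 RPKM in either library, 19.1% were at least 2-fold higher and 8.48% at least 2-fold lower. These marker differences accompany every difference given here, and their part in it was not tested. In a mixed population, fewer cells of a type and less RNA per cell cannot be told apart.

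Lin28 proteins bind precursors of let-7, a microRNA family, and block their processing, partly by recruiting uridyl transferases that tag the precursor for decay. Mature let-7 in turn pairs with sites in the 3′ untranslated regions (UTRs) of many mRNAs, among them those of Lin28a, Lin28b, Trim71, Hmga2 and Igf2bp1, and lowers their output. In mouse ES cells the Lin28 proteins are known for keeping mature let-7 low. Trim71, also called Lin41, is an RNA-binding repressor and ubiquitin ligase first known as a let-7 target of the nematode. Hmga proteins are architectural factors that bind AT-rich DNA, and Igf2bp proteins bind mRNAs such as that of Igf2 and affect their stability and translation. Mature let-7 is not analysed here: 0 rows of the gene table were named for a let-7 gene, and the library was made from poly(A) RNA.

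The sequences that define this circuit are shown first, because every gene of the group carries a match to the let-7 seed, the stretch from base 2 to base 8 that pairs with targets. RefSeq (GRCm38.p6) lists 11 mature microRNAs of the mouse let-7 family by name, of which 10 share the seed GAGGUAG. These 5 are shown, seed in capitals, to let the shared start be compared with the varied end.
let-7a-5p: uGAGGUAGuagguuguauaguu
let-7c-5p: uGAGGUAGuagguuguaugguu
let-7g-5p: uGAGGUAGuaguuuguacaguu
let-7i-5p: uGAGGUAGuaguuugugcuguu
miR-98-5p: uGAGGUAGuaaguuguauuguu

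Lin28 proteins are known to recognise the letters GGAG in the terminal loop of the let-7 precursor. Of the 12 hairpins named Mirlet7 or Mir98 in RefSeq, 9 had GGAG between the mature strands. The pair below contrasts 1 hairpin with it (in capitals) and 1 without it, in a search of the given strand alone.
Mirlet7g hairpin: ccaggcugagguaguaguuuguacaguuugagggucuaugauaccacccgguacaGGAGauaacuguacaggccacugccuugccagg
Mirlet7b hairpin: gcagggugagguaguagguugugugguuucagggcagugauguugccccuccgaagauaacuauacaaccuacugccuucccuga

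The match to the seed is CTACCTC, searched on the mRNA strand of the 3′ UTR of the protein-coding GENCODE M21 transcript (build GRCm38) with the highest value among those matched to the deposited table. It occurred in 8.37% of 16982 such UTRs, which had a median length of 812 bases. The match nearest to the stop codon is printed for each gene, with the CTACCTC in capitals. The GRCm38 position is that of the whole stretch, and each match lies in the 3′ UTR.
Lin28a, chr4:134005189-134005211, minus strand: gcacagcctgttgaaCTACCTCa
Lin28b, chr10:45381022-45381044, minus strand: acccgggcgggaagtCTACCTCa
Trim71, chr9:114512472-114512494, minus strand: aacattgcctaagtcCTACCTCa
Hmga1, chr17:27563277-27563299, plus strand: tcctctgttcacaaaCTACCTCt
Hmga2, chr10:120364224-120364246, minus strand: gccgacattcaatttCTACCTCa
Igf2bp1, chr11:95961778-95961800, minus strand: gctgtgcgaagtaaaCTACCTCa
Igf2bp2, chr16:22059473-22059495, minus strand: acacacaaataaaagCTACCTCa
Igf2bp3, chr6:49086787-49086809, minus strand: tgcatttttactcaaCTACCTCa
Apart from Hmga1, each of these stretches has an A after the match, which lies opposite base 1 of the microRNA. Matches not printed often lack it: the A followed 1 of 4 matches in Lin28b and in Hmga2. It followed 3 of 4 in Igf2bp1, 4 of 4 in Trim71 and 2 of 2 in Lin28a.

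The genes differed in how many matches they held. Lin28b, Trim71, Hmga2 and Igf2bp1 had 4 each, Lin28a had 2, and Hmga1, Igf2bp2 and Igf2bp3 had 1 each. Among UTRs within 20% of the same length, at least 4 matches occurred in 0.129% of 1551 for Hmga2, 0.358% of 839 for Lin28b, 0.608% of 329 for Igf2bp1 and 0.830% of 482 for Trim71. At least 2 occurred in 2.58% of 1665 for Lin28a. The UTRs compared include those of members, such as Trim71 (5512 bases) among those for Igf2bp1 (6337 bases). They are therefore no background from outside the group. At least 1 match, the number in Hmga1, Igf2bp2 and Igf2bp3, occurred in 9.19% to 13.1% of UTRs of their lengths. These genes are grouped as let-7 targets on such sites, so the matches describe the group and are no result of the libraries.

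The 8 genes did not move as a group in these libraries. With at least 1 RPKM in either library and at least 2-fold on the log2(RPKM + 1) scale as the limit, 2 were higher in the differentiated library (Hmga2 and Igf2bp3), 1 was lower (Hmga1) and 5 lay between. Of all 17899 genes at that floor, 19.1% were higher and 8.48% were lower, so the members' counts are near the background. Their median log2 ratio was 0.04, against 0.12 over all genes at the floor. Over the 12115 genes at the floor with a GENCODE 3′ UTR, 23.1% were higher and 7.53% lower, with a median of 0.29. The lists below are set beside all genes at the floor, which include rows without such a UTR. The median over all genes depended on scaling, as did the split of genes past 2-fold. Of genes past 2-fold, 69.3% were higher as deposited and 58.1% to 80.5% under the other scalings.

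**Figure D1:**
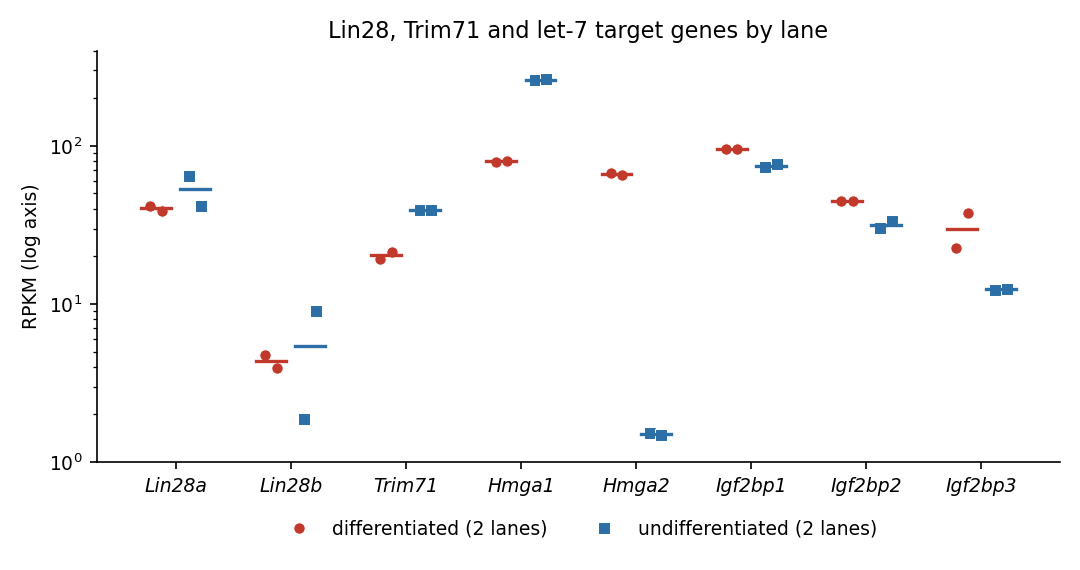
RPKM (log axis) of the 8 genes in each lane, with circles for the differentiated and squares for the undifferentiated library and a bar at the mean of 2 lanes. Hmga2 is near 66 RPKM in the differentiated and near 1.5 in the undifferentiated lanes, Hmga1 averages 79.7 RPKM in the differentiated and 263 in the undifferentiated lanes, and the undifferentiated lanes of Lin28b and the differentiated lanes of Igf2bp3 stand apart from each other.

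In the differentiated library the order of levels from the highest was Igf2bp1, Hmga1, Hmga2, Igf2bp2, Lin28a, Igf2bp3, Trim71 and Lin28b. The undifferentiated library had the order Hmga1, Igf2bp1, Lin28a, Trim71, Igf2bp2, Igf2bp3, Lin28b and Hmga2. Hmga2 was thus the third highest of the group in the differentiated library and the lowest in the undifferentiated library. No neighbours in either order overlapped in their lane values.

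Lin28a, the first of the let-7 blocking proteins, was expressed in both states at a similar level. It stood at 41.6 and 38.9 RPKM in the differentiated lanes and at 64.8 and 41.4 RPKM in the undifferentiated lanes (mm9 chromosome 4, 133559245 to 133574756, minus strand). The undifferentiated lanes lay farther from each other than lane 2 of that library lay from the differentiated lanes. The log2 ratio was -0.39, with -0.63 in lane 1 and -0.09 in lane 2. A further row with this symbol, on the plus strand at the 3′ end of the gene (133559278 to 133560802), held 23.4 and 25.6 RPKM in the differentiated lanes and 25.6 and 22.0 in the undifferentiated lanes. Its transcript carries the name Gm10299. Because the kit does not mark strand, reads of these overlapping rows cannot be told apart.

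Lin28b, the paralogue that also blocks let-7, had the lowest level of the group in the differentiated library, and its direction differed between lanes. It stood at 4.77 and 3.95 RPKM in the differentiated lanes and at 1.86 and 9.05 RPKM in the undifferentiated lanes (chromosome 10, 45096425 to 45206201). The differentiated values thus lay between those of the undifferentiated lanes. The log2 ratio of -0.27 was 1.01 in lane 1 and -1.02 in lane 2.

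The transcript models of Lin28b showed where the lanes parted. Models that start at the first exon of the RefSeq mRNA summed to 3.90 and 2.75 RPKM in the differentiated lanes, against 1.44 and 1.34 in the undifferentiated lanes. On these 2 models both differentiated lanes were above both undifferentiated lanes, and the log2 ratio was 0.86, a view chosen after the values were seen. The RefSeq model alone corresponded to about 340 and 230 reads in the differentiated lanes and about 145 and 151 in the undifferentiated lanes. Models with first exons farther upstream summed to 0.870 and 1.20 RPKM in the differentiated lanes, against 0.422 and 7.71 in the undifferentiated lanes. Lane 2 of the undifferentiated library owed 6.12 RPKM to 1 of them, which stood at 0.146 in lane 1. The RefSeq first exon held 81.8% and 69.6% of the promoter sum of Lin28b in the differentiated lanes, against 77.3% and 14.8% in the undifferentiated lanes, so that lane 2 of the undifferentiated library alone stood apart.

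**Figure D2:**
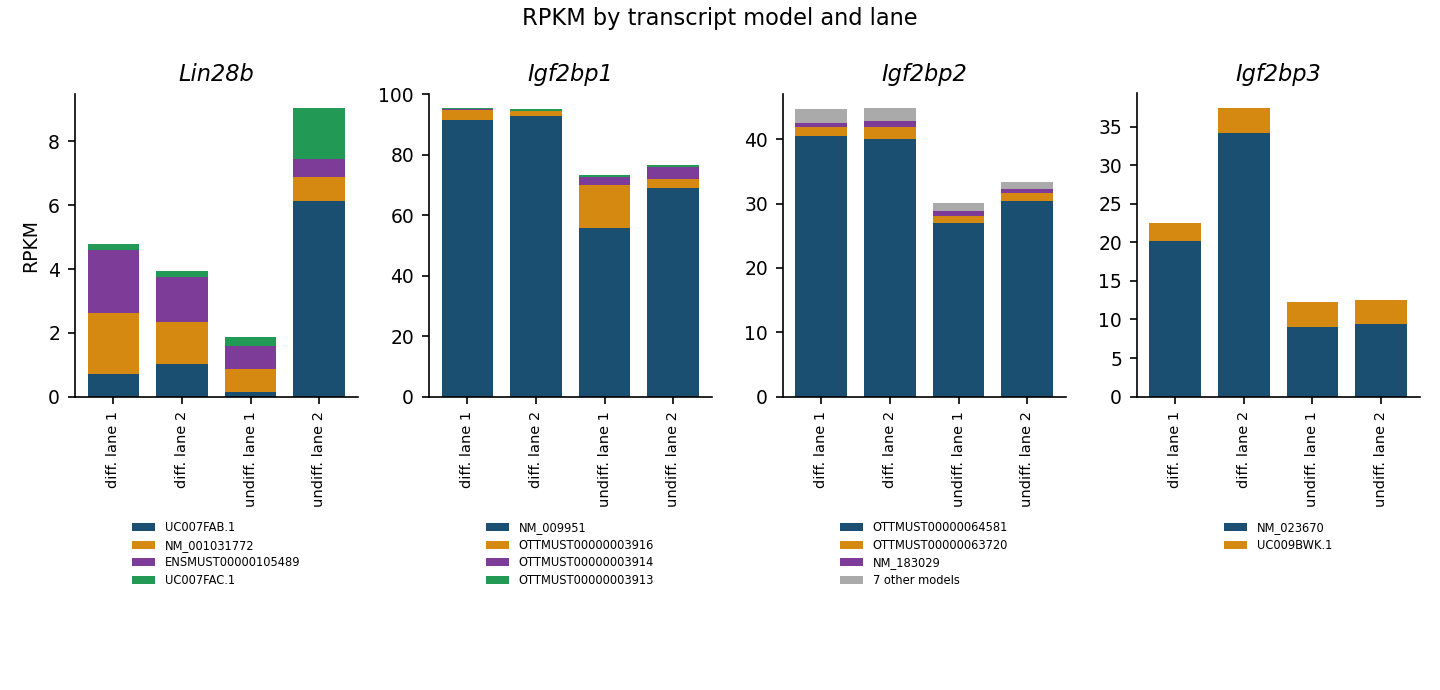
RPKM by transcript model, stacked for each lane, for Lin28b, Igf2bp1, Igf2bp2 and Igf2bp3, with the differentiated lanes left of the undifferentiated lanes. A model at 6.12 RPKM in undifferentiated lane 2 accounts for most of Lin28b there, and 1 model accounts for most of each Igf2bp gene.

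Trim71 was lower in the differentiated library by a little under 2-fold. It stood at 19.3 and 21.2 RPKM in the differentiated lanes, against 39.1 and 39.4 RPKM in the undifferentiated lanes (chromosome 9, 114420391 to 114473487). The lanes did not overlap, and the log2 ratio was -0.92, with -0.98 and -0.86 in the separate lanes. A single model with 1 first exon held all of it, about 5950 and 6330 reads in the differentiated lanes and 13800 and 13300 in the undifferentiated lanes. Under scalings that centred or trimmed the ratios, Trim71 passed 2-fold, with -1.04 to -1.08, and with equal sums it stood at -0.68.

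The Hmga genes went in opposite directions. Hmga1, which encodes an abundant AT-hook protein of proliferating and embryonic cells, stood at 79.0 and 80.4 RPKM in the differentiated lanes, against 262 and 263 RPKM in the undifferentiated lanes (chromosome 17, 27693519 to 27700619). The lanes did not overlap, and the log2 ratio was -1.71. The promoter table names 14 transcripts at its first exon, of which the transcript table gives values under this symbol for 10. Of these 10 models, 9 passed 2-fold on the lower side. For NM_001166541 this rested on undifferentiated lane 2, at 5.48 RPKM, since the other lanes held 0. The remaining model, NM_001166543, had 1.05 and 4.36 RPKM in the differentiated lanes and 3.51 and 0 in the undifferentiated lanes.

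Hmga2, the AT-hook gene best known as a let-7 target, showed the largest difference of the group. It stood at 67.2 and 65.2 RPKM in the differentiated lanes, against 1.53 and 1.48 RPKM in the undifferentiated lanes (chromosome 10, 119798331 to 119913991). The deposited means were 43.9-fold apart, and the log2 ratio of 4.74 was higher than that of 99.7% of genes at the floor. All 3 models share 1 first exon, and the full-length model NM_010441 held 88.7% and 91.5% of the sum in the differentiated lanes and 92.8% and 43.2% in the undifferentiated lanes. That model corresponded to about 7300 and 7080 reads in the differentiated lanes and to 199 and 85.8 in the undifferentiated lanes. Hmga2-ps1, the pseudogene on chromosome 1, moved in the same direction, with 12.4 and 15.6 RPKM in the differentiated lanes against 0.646 and 0.583 in the undifferentiated lanes, and it may share reads with the gene. Hmga1 and Hmga2 together summed to 146 RPKM in the differentiated and 264 in the undifferentiated library. Hmga2 made 45.4% of that sum in the differentiated library and 0.571% in the undifferentiated library.

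**Figure D3:**
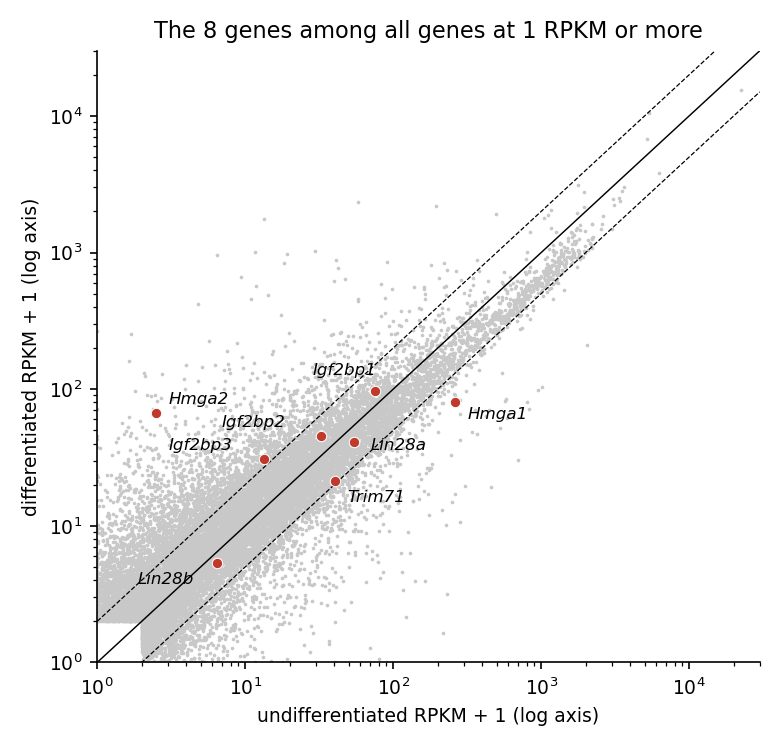
Differentiated against undifferentiated RPKM + 1 (log axes) for all genes at 1 RPKM or more in either library, with the 8 genes labelled, a solid line at equal values and dashed lines at 2-fold. Hmga2 (66.2 and 1.51 RPKM) lies far above the upper dashed line, Hmga1 (79.7 and 263 RPKM) below the lower one, and Lin28a, Lin28b, Trim71, Igf2bp1 and Igf2bp2 lie between the lines.

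All 3 Igf2bp genes had higher means in the differentiated library, by 1.27-fold to 2.42-fold. Igf2bp1, whose protein binds and stabilises target mRNAs, was the highest of the family in both states, at 95.5 and 95.2 RPKM in the differentiated lanes and 73.3 and 76.5 RPKM in the undifferentiated lanes (chromosome 11, 95818477 to 95867258). The lanes did not overlap, and the log2 ratio was 0.34, less than 2-fold. Its full-length model NM_009951 stood at 91.5 and 92.9 RPKM in the differentiated lanes against 55.8 and 69.2 in the undifferentiated lanes, a log2 ratio of 0.55. A short noncoding model in the 3′ part of the gene, OTTMUST00000003916, took 14.3 RPKM in undifferentiated lane 1, against 2.70 in lane 2 of that library.

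Igf2bp2, the family member that stays expressed in many adult tissues, stood at 44.7 and 44.9 RPKM in the differentiated lanes, against 30.1 and 33.4 RPKM in the undifferentiated lanes (chromosome 16, 22059082 to 22163372). The lanes did not overlap, and the log2 ratio was 0.48. Of its 10 models, OTTMUST00000064581, which GENCODE classes as a retained intron and which starts within the gene, held 89.9% of the sum in the differentiated and 90.4% in the undifferentiated library. The full-length coding model NM_183029 stood at 0.564 and 0.973 RPKM in the differentiated lanes and at 0.816 and 0.644 in the undifferentiated lanes. Those values overlapped, and the internal model, at 40.3 RPKM in the differentiated and 28.7 in the undifferentiated library, held most of the difference in the gene sum. How reads were divided between overlapping models is not given in the sources used.

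Igf2bp3, an oncofetal RNA-binding protein gene, was higher in the differentiated library, with lanes that differed from each other. It stood at 22.5 and 37.4 RPKM in the differentiated lanes, against 12.3 and 12.5 RPKM in the undifferentiated lanes (chromosome 6, 49035217 to 49164953). The lanes of the libraries did not overlap. The log2 ratio was 1.21, past 2-fold in lane 2 (1.51) and short of it in lane 1 (0.82). Its RefSeq model NM_023670 stood at 20.2 and 34.2 RPKM in the differentiated lanes against 9.06 and 9.38 in the undifferentiated lanes, and carried the difference. The shorter model UC009BWK.1 stood at 2.22 and 3.20 RPKM in the differentiated lanes and at 3.24 and 3.10 in the undifferentiated lanes. Summed over the family, Igf2bp genes had 170 RPKM in the differentiated and 119 in the undifferentiated library, and the share of Igf2bp3 was 17.6% and 10.4%.

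**Figure D4:**
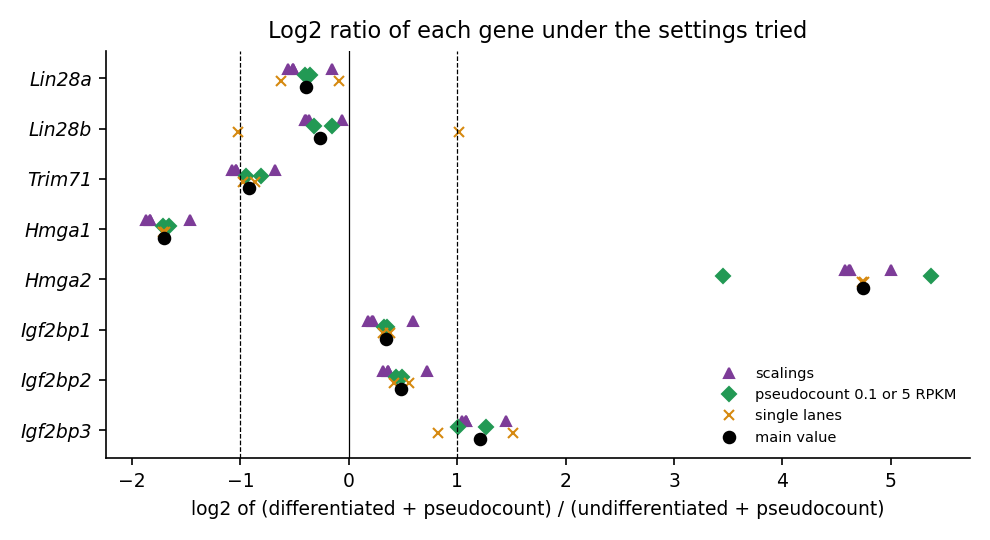
Log2 ratio of differentiated over undifferentiated for each gene under other scalings (triangles), pseudocounts (diamonds), single lanes (crosses) and as reported (circles), with dashed lines at 2-fold. Hmga2 stays above and Hmga1 below the 2-fold lines at every setting shown, the crosses of Lin28b lie at 1.01 and -1.02, and Trim71 and Igf2bp3 lie on both sides of a dashed line.

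The genes whose levels were nearest to each member over the 4 lanes, by distance of log2(RPKM + 1), were found among genes with informative symbols. Plat, which encodes tissue plasminogen activator, was nearest to Hmga2, at 70.1 RPKM in the differentiated and 1.39 in the undifferentiated library (distance 0.35), and Tinagl1, a basement membrane protein gene, was next (0.44). For Hmga1 they were Rcc2 (0.25) and Sars (0.29), for Trim71 Nfu1 (0.09) and Otud6b (0.09), and for Igf2bp3 Hdac5 (0.23) and Rnf41 (0.30). Igf2bp1 lay nearest to Arpc3 (0.08) and Ptp4a2 (0.10), Igf2bp2 to Edc4 (0.05) and Strn4 (0.06), and Lin28a to Snf8 (0.27) and Fubp3 (0.29). Lin28b had only distant neighbours, Pbx4 (0.54) and Zfp276 (0.76). With 2 libraries such a likeness says only that the levels in both were similar.

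Among 19 genes of let-7 processing and decay at the floor, 2 lay past 2-fold in each direction, beside 19.1% higher and 8.48% lower over all genes. The median log2 ratio was 0.01, beside 0.12. Zcchc11, the uridyl transferase that Lin28a recruits to the let-7 precursor, was higher, with 35.1 and 35.0 RPKM in the differentiated lanes against 12.7 and 14.6 in the undifferentiated lanes (log2 ratio 1.30). Trim25, an RNA-binding cofactor of that reaction, was lower, with 20.7 and 21.0 RPKM in the differentiated lanes against 57.1 and 55.8 in the undifferentiated lanes (-1.39). The Argonaute gene Ago4 was lower by the means (1.33 RPKM in the differentiated and 4.22 in the undifferentiated library), but this rested on undifferentiated lane 2 at 7.99 RPKM, since lane 1 stood at 0.455. Prkra, a partner of Dicer, was the other higher gene, picked with its values known (11.6 RPKM in the differentiated and 4.66 in the undifferentiated library). Dicer1, Drosha and the decay exonuclease gene Dis3l2, named likewise, had log2 ratios of 0.10, -0.01 and 0.14.

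Of the transcripts that carry let-7 hairpins, 2 noncoding hosts and 1 coding host were looked up with values. Mir100hg, the host of let-7a-2 on chromosome 9, stood at 1.23 and 1.65 RPKM in the differentiated lanes and at 0.979 and 0.415 in the undifferentiated lanes. Mir99ahg, the host of let-7c-1, was at 0.0392 RPKM in the differentiated and 0.00539 in the undifferentiated library, under the floor in both. Huwe1, the coding gene that houses Mir98 and let-7f-2, stood at 78.7 and 33.7 RPKM in the differentiated lanes and 30.8 and 30.2 in the undifferentiated lanes, so that its higher mean rested on differentiated lane 1. Mirlet7bhg is not analysed here.

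Other genes reported as let-7 targets differed widely among themselves. Past 2-fold stood 8 of the 23 at the floor, 7 higher and 1 lower, beside 19.1% and 8.48% of all genes. The list's median was 0.15 on the log2 scale, beside 0.12 over all genes and 0.29 over those with a GENCODE 3′ UTR. Ccnd2, cyclin D2 of the G1 phase, had 54.9 and 51.6 RPKM in the differentiated lanes against 1.24 and 2.07 in the undifferentiated lanes (4.35). Igdcc3, an immunoglobulin superfamily gene of the embryo, had 33.8 and 36.2 RPKM in the differentiated lanes against 1.17 and 0.973 in the undifferentiated lanes (4.12). Igf1r, the receptor for insulin-like growth factors, had 26.8 and 28.8 RPKM in the differentiated lanes against 3.10 and 2.89 in the undifferentiated lanes (2.85). The further higher genes, named after their values were seen, were Irs2 (1.94), Arid3a (1.89), Insr (1.38) and Tgfbr1 (1.02). The lower gene, named likewise, was Mycn (33.2 RPKM in the differentiated and 75.8 in the undifferentiated library, -1.17).

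The 12115 genes at the floor with a GENCODE 3′ UTR were also taken by their number of CTACCTC matches, as a description with no test. Of all of these, 23.1% were higher and 7.53% were lower, with a median log2 ratio of 0.29. Of 21 genes with at least 3 matches, 5 were higher and 0 were lower, with a median log2 ratio of 0.42. These 21 include the members Hmga2, Igf2bp1, Lin28b and Trim71, with 4 matches each, and Hmga2 is among the 5 higher genes. Of 11003 genes without a match, 22.7% were higher and 7.73% were lower, with a median of 0.27. Genes with 1 match, 978 in all, were higher in 27.7% and lower in 5.73% of cases, with a median of 0.44. The 113 genes with 2 matches were higher in 23.0% and lower in 5.31%, with a median of 0.56. UTR length differed as well, with medians of 4453 bases for at least 3 matches, 3287 for 2, 1933 for 1 and 823 for none, and its part was not tested. The gene with the most matches was Nr6a1, an orphan nuclear receptor, with 8 matches and 15.3 RPKM in the differentiated against 7.77 in the undifferentiated library (0.89). Of the 9 genes with at least 4 matches, Hmga2 (4.74), Igf2bp1 (0.34) and Nudt12 (0.32) also had higher means. Lower means were seen for Trim71 (-0.92), D10wsu102e (-0.91), Trim6 (-0.87), Lin28b (-0.27) and Hic2 (-0.27). The annotated UTR of D10wsu102e spans 122583 bases.

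Of 7 genes reported as repressed or bound by Trim71, 3 were past 2-fold on the higher side and 0 on the lower side, beside 19.1% and 8.48% of all genes. The median was 0.44, beside 0.12. Cdkn1a, which encodes the cell cycle inhibitor p21, had 150 and 153 RPKM in the differentiated lanes against 26.7 and 30.4 in the undifferentiated lanes (2.37). The early response factor gene Egr1 had 36.6 and 36.0 RPKM in the differentiated lanes against 9.07 and 9.24 in the undifferentiated lanes (1.88). Mbnl1, a splicing factor gene, had 10.4 and 9.20 RPKM in the differentiated lanes against 2.98 and 2.77 in the undifferentiated lanes (1.48). The other 4, named with their values known, lay between the limits: Rbl1 (-0.51), Rbl2 (0.07), Shcbp1 (0.30) and Ago2 (0.44).

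The 9 RNAs reported as bound by Igf2bp proteins gave 3 on the higher side and 1 on the lower side, beside 19.1% and 8.48% of all genes (median 0.35, beside 0.12). Igf2, the fetal growth factor that gave the family its name, had 414 and 419 RPKM in the differentiated lanes against 3.15 and 4.43 in the undifferentiated lanes (6.45). H19, the noncoding RNA beside Igf2, had 1016 and 1041 RPKM in the differentiated lanes against 29.2 and 27.9 in the undifferentiated lanes (5.12). Cd44, a hyaluronan receptor gene, had 12.1 and 10.5 RPKM in the differentiated lanes against 3.13 and 3.96 in the undifferentiated lanes (1.44). The lower gene was Mapt, the microtubule protein tau, picked with its values known (0.885 RPKM in the differentiated and 4.10 in the undifferentiated library, -1.44).

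Relatives of the members went both ways. The 15 genes for cold shock, HMG and NHL repeat proteins gave 5 on the higher and 2 on the lower side, beside 19.1% and 8.48% of all genes (median 0.21, beside 0.12). Trim3 and Trim32, NHL repeat relatives of Trim71, were higher, at 21.1 against 4.92 RPKM (1.90) and 11.7 against 2.74 RPKM (1.76) in the differentiated against the undifferentiated library. Their relative Trim2, named with its values known, stood at 4.07 against 5.56 RPKM (-0.37). The cold shock gene Carhsp1 was higher as well (65.1 against 19.2 RPKM, 1.71). The further higher genes, picked with their values known, were the HMG genes Hmgn3 (1.54) and Hmgb3 (1.16). The lower genes, picked in the same way, were the cold shock gene Ybx3 (-1.18) and the HMG gene Hmgb2 (-1.17).

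**Figure D5:**
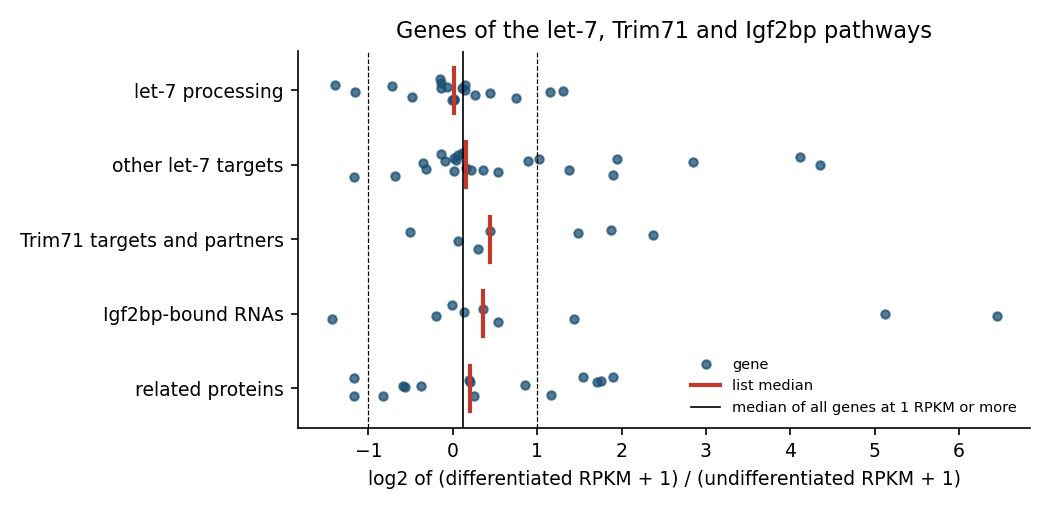
Log2 ratio (differentiated over undifferentiated, RPKM + 1) of genes at the floor in 5 lists, with a bar at each list's median, a solid line at the median of all genes and dashed lines at 2-fold. The medians run from 0.01 to 0.44, beside 0.12 for all genes, while Ccnd2, Igdcc3, Igf2 and H19 lie past 4.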

How the data were processed

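The 3 deposited tables give RPKM per gene (34376 rows), promoter (55830) and transcript (83402) for 2 lanes of each library and their mean. The headers name no unit: RPKM was read from the values the authors deposited, since in single-exon genes value times length fell within 5% of whole reads for 81.9% to 82.4% of low values. Coordinates are mm9, per the submitters' processing notes, counted from 1. The sources used here name no aligner, counter or annotation, nor how reads that match several places were counted. A related result is not reported here. Reads were 36 bp single-end, and dead cells were 8% of the differentiated and 2% of the undifferentiated harvest, per the labels' protocols.

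Ratios are log2 values after adding 1 RPKM, differentiated over undifferentiated, which understates weakly expressed genes. Genes at 1 RPKM or more in either library were counted at 2-fold. For a repeated symbol the highest row was kept. Implied reads are value times GENCODE length times implied depth. The members and lists were chosen with earlier results of these data known. Named were all members, the 3 genes of each pathway list with the largest absolute ratio and the 2 genes nearest to each member, and other genes were picked after seeing values. Alternatives were pseudocounts, floors, scalings, lanes, fold limits and summed rows. Calls and site searches were tested on simulated data. Python 3.11.15, numpy 2.4.6, pandas 2.3.3 and matplotlib 3.10.9 were used.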

Additional observations from a re-analysis of the deposited data

How the results depend on the processing

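Hmga2 (log2 ratios 3.45 to 5.37) and Hmga1 (-1.87 to -1.46) kept direction and stayed past 2-fold over 10 settings. Lin28b reversed to 1.01 in lane 1 alone and to 0.86 over models from the RefSeq first exon, an alternative chosen after seeing the data. Members at least 2-fold lower numbered 2 after median centring, trimmed-mean or upper-quartile scaling or at a 1.5-fold limit, each time with Trim71 added, and 2 in lane 2 with Lin28b added. In lane 1 the higher members were Hmga2 and Lin28b in place of Igf2bp3. At a 4-fold limit 1 member was higher and 0 were lower. Over all genes, 1633 were higher and 713 lower with a pseudocount of 5 RPKM, 5656 and 3658 at 1.5-fold, and 975 and 335 at 4-fold, against 3419 and 1517 as reported. Higher genes made 69.3% of those past 2-fold as deposited, 59.4% once the median was centred, 58.1% by trimmed mean, 61.0% by upper quartile and 80.5% with equal sums. With equal sums the median over all genes was 0.35 on the log2 scale, against 0.12. No paired analysis was possible because each group has 1 library. Leaving out a replicate was not possible for the same reason. With 1 library per condition the spread between cultures is unknown.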
